A study of Mus musculus with 8 samples.

Results

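The clustered histone genes encode the linker histone H1 and the core histones H2A, H2B, H3 and H4 from tandem gene arrays. They were taken here as every row of the count table whose Ensembl identifier maps to a symbol that begins with Hist1h, Hist2h, Hist3h or Hist4h, or to the newer name of such a gene. Among the gene names used here 70 match the rule, and those without a row in the count table were not analysed. The rule found 56 of the 37310 genes in the table. Of these, 45 carry Hist1 names (all on chromosome 13), 8 Hist2 names (chromosome 3) and 3 Hist3 names (chromosome 11). By protein they are 6 H1, 18 H2A, 14 H2B, 6 H3 and 12 H4 genes. The annotation lists Hist1h2aj, Hist1h2al and Hist3h2bb-ps among them as pseudogenes. The mice were 4 Nr2f1 heterozygotes (HET) and 4 wild types (WT), all of them male F1 hybrids of B6.129 background aged 3 months. RNA came from the hippocampus, and the labels call the 4 libraries of a genotype biological replicates. The labels do not describe the Nr2f1 allele.

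Histone proteins package DNA into nucleosomes, and most clustered histone genes are transcribed in S phase, when new DNA is wrapped. Their messages usually end without a poly(A) tail. In its place the 3′ end carries a short stem-loop, which is bound by the stem-loop binding protein Slbp and is cut just downstream with the help of the U7 small nuclear RNA. In cells that have left the cycle, as most hippocampal neurons and glia have, some of these genes also give polyadenylated messages that run past the stem-loop. The cDNA kit used here primed at poly(A) tails and at random positions, so both forms can be read, and the counts do not tell them apart.

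Nr2f1, the gene that was targeted, was at 32.4, 31.0, 33.5 and 28.5 CPM in HET libraries 1 to 4, against 53.4, 49.5, 54.1 and 51.6 CPM in WT libraries 1 to 4 (CPM, counts scaled to a common library size after TMM normalisation). The genotypes did not overlap, and HET stood at 60.1% of WT (exact two-sided permutation p = 0.0286, the smallest that 4 against 4 allows). Libraries held 58717305 to 90043971 gene counts, and a count of 0 in a library allows a level of up to 0.0332 to 0.0510 CPM, counting error only. All 9 hippocampal neuron markers of the tissue check were detected, with summed levels of 9554 to 10638 CPM in HET and 10238 to 11223 CPM in WT libraries, and 2 of them, Wfs1 (0.846 of WT) and Snap25 (0.873 of WT), were lower in HET past the test used below. Choroid plexus markers differed widely between the libraries: the 14 markers summed to 5640 to 6503 CPM in HET and to 219, 2180, 753 and 2991 CPM in WT libraries 1 to 4. Fewer cells of a type and less RNA per cell cannot be told apart in such bulk samples.

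The stem-loop was searched for in the GENCODE M21 transcripts of the 56 genes, by the 16-base consensus of histone stem-loops. It was found in 37 of them, and in 80 of all 55450 annotated genes (0.144%). The stem-loops of the 7 most counted genes that have one are shown. The H4 genes Hist1h4d and Hist1h4j, which had few reads, are added because base pairs inside the stem set H4 genes apart from the others. Capitals mark the 16-base stem-loop, with 5 flanking bases on each side.
Hist1h1c: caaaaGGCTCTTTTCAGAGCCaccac
Hist1h2be: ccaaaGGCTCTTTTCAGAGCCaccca
Hist2h3c2: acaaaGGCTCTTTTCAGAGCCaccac
Hist3h2a: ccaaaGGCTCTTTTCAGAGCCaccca
Hist3h2ba: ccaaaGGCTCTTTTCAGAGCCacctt
Hist2h4: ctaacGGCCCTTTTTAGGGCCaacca
Hist1h4i: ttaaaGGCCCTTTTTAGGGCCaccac
Hist1h4d: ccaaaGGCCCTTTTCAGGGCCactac
Hist1h4j: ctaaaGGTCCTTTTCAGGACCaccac
All 26 stem-loops of H1, H2A, H2B and H3 genes opened with GGCTC, and none of the 11 of H4 genes did. Of the H4 stem-loops 9 opened with GGCCC and 2, those of Hist1h4b and Hist1h4j, with GGTCC. The single most frequent form, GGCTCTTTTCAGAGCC, stood in 20 genes. No match says only that these letters are not in the annotated transcript.

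Promoters of 49 of the 56 genes were found in the RefSeq table, as 300 bases around each start on GRCm38.p6. The octamer ATTTGCAT, which Oct1 binds in H2B promoters, was sought on both strands together with the CCAAT box CCAAT and the TATA box TATAAA. The octamer stood in 4 of 11 H2B and 7 of 16 H2A promoters, in none of the 22 other histone promoters, and in 1.74% of all 32851 promoters. CCAAT stood in every H1, H2A, H2B and H3 promoter listed, in 3 of 11 H4 promoters and in 37.4% of all promoters. TATAAA stood in 31 of 49 histone promoters and in 13.6% of all. H2A and H2B genes are often arranged head to head, so that a pair shares a promoter region and the same motif is counted for both. The region between Hist1h2ac and Hist1h2bc, whose starts lie 251 bases apart, is shown because the pair holds the most counted histone gene, and the region before Hist3h2ba because that gene had the highest level per length. Both run up to the base before the RefSeq start, with the motifs of either strand in capitals.
Hist1h2ac, GRCm38.p6 chr13:23683960-23684209, minus strand: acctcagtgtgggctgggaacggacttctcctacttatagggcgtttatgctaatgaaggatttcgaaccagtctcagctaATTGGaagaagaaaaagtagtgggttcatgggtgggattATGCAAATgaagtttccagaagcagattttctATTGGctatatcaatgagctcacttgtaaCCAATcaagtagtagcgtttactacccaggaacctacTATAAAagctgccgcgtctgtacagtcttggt
Hist3h2ba, GRCm38.p6 chr11:58948661-58948910, plus strand: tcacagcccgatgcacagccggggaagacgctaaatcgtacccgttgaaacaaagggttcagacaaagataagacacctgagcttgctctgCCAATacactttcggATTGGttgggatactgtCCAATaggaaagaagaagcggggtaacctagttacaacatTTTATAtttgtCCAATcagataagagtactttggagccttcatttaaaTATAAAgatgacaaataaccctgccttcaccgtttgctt
The Hist1h2ac window holds an octamer and the Hist3h2ba window none, and no motif overlaps another in either.

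Few of the 56 genes gave many reads. Reads were counted for 49, and 7 had none in any library: Hist1h2aa, Hist1h2ag, Hist1h2an, Hist1h2ba, Hist1h4m, Hist2h2aa2 and Hist2h2ab. Hist1h2aa and Hist1h2ba are testis forms, and Hist1h1t, the testis H1, had 4 reads over the 8 libraries. The filter on low counts left 21 genes for testing, 12 of 45 Hist1, 6 of 8 Hist2 and all 3 Hist3 genes. All members together came to 69.2 ± 2.78 CPM in HET and 60.7 ± 4.56 CPM in WT (SD, n = 4 each). Hist1h2bc alone made up 23.0% of that sum, and with Hist3h2a, Hist3h2ba, Hist1h1c and Hist2h2be 77.7%.

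Per kilobase of annotated exon, a scale on which genes can be compared, Hist3h2ba (an H2B gene) led with 16.2 in HET and 15.8 CPM per kb in WT. Hist1h2bc followed with 14.3 CPM per kb in HET and 11.5 CPM per kb in WT. Hist1h1c, the H1.2 gene, had 5.98 CPM per kb in HET and 4.6 in WT. Hist3h2a had 4.90 CPM per kb in HET and 5.13 in WT, and Hist2h2be 2.58 in HET and 2.50 in WT. The exon lengths come from an annotation on another build than the counts, so these levels are approximate. Of 9 head-to-head pairs 3 had both genes tested, and in these the partners' levels were far apart. Hist1h2bc averaged 12.9 CPM per kb over the 8 libraries and its partner Hist1h2ac 0.222. Hist2h2be, the H2B form known from mouse olfactory neurons, averaged 2.54 CPM per kb and its partner Hist2h2ac 0.297. Hist3h2a averaged 5.02 CPM per kb and its partner Hist3h2bb-ps 0.297. Pairs of little counted genes could lie closer, as Hist1h2ah at 0.0616 and Hist1h2bk at 0.0368 CPM per kb did, and Hist1h2ba and Hist1h2aa were both at 0.

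Where a stem-loop was found, the annotated transcripts of the tested genes ran further past it. None was found in Hist1h2bc (23.0% of the summed CPM) or Hist2h2be (10.2%), so this comparison leaves them out. In the 15 of 21 tested genes with a stem-loop the median was 377 bases beyond it, and in the 22 untested ones 37.5 bases. At least 100 bases lay beyond it in 11 of those 15 and 7 of those 22. Tested genes also had longer exons, with a median of 727 bases against 485 bases in untested genes, and a longer transcript gathers more reads at the same level. The genes share sequence as well. Of the 50-base words in a gene's transcripts, a median of 31.5% stood in another gene too for tested genes, 60.4% for untested genes and 78.9% for the 7 genes without reads. Words were sought on both strands, and also in genes that overlap at the same place. These shares are therefore not of close copies alone. For Hist3h2a the 31.5% stood in Trim17, an exon of which overlaps it. How reads that map to several places were counted is not given in the sources used here, so the split between close copies is uncertain, and its part in these levels was not tested. Every such word of Hist2h2aa1 stood in Gm20633 and every one of Hist2h2aa2 in Gm20632, transcripts annotated antisense to them. Reads were counted for Hist2h2aa1 alone of this pair.

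**Figure D1:**
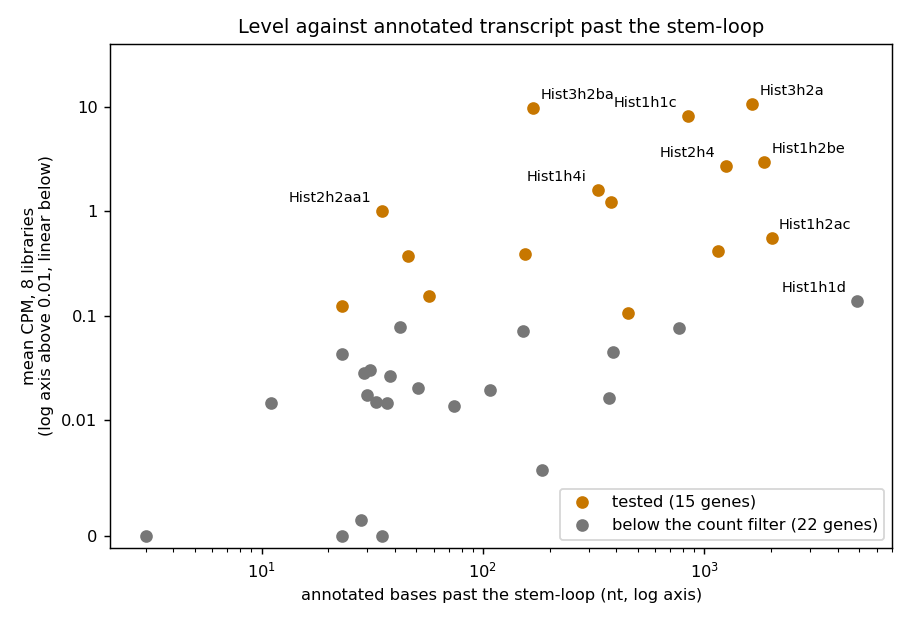
Mean level of the 37 genes with a stem-loop (vertical axis, CPM over 8 libraries, log above 0.01 and linear below) against the annotated bases past the stem-loop (horizontal axis, log). The 15 tested genes (orange) have a median of 377 bases past it and the 22 genes below the count filter (grey) 37.5 bases. Hist1h2bc and Hist2h2be, without a stem-loop match, are not shown.

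None of the 21 tested histone genes differed between HET and WT at an adjusted p of 0.05. The threshold is edgeR's quasi-likelihood test with Benjamini-Hochberg adjustment over 17913 genes, of which 2.99% passed, 2.62% higher and 0.368% lower in HET. Most of the histone genes had values above WT: 18 of 21 log2 fold changes were positive, where 47.9% of all tested genes were, and the median was 0.22 against -0.0056 over all tested genes. At an unadjusted edgeR p under 0.05, 8 of 21 were higher in HET and 0 lower, beside 10.0% and 7.11% of all tested genes. The libraries of the genotypes did not overlap for 3 of 21, all higher in HET, beside 6.99% of all tested genes that stood apart with HET higher and 3.59% with HET lower. DESeq2's Wald test called 2 of the genes, Hist1h2bc and Hist1h1c, higher in HET, beside 4.74% of the genes it tested, and limma-voom called 0.

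**Figure D2:**
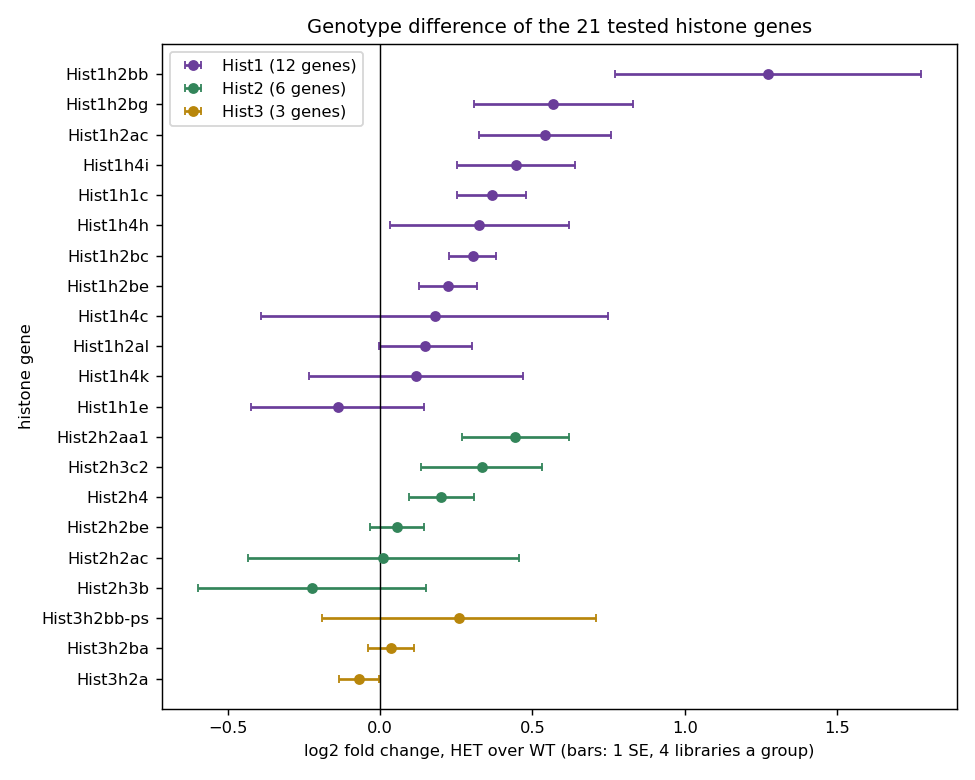
Log2 fold change of HET over WT (horizontal axis, points, with bars of 1 SE, 4 libraries a group) for the 21 tested histone genes, grouped by cluster. Of 21 points 18 lie right of 0, and none passed the adjusted threshold. The Hist3 genes Hist3h2a and Hist3h2ba lie close to 0 at -0.069 and 0.036, and Hist3h2bb-ps lies at 0.26 with an SE of 0.45.

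Among H2B genes all 7 tested had positive log2 fold changes, beside 47.9% of all tested genes. Of the 7, 4 were higher at an unadjusted p under 0.05, beside 10.0% of all tested genes. Hist1h2bc (ENSMUSG00000018102.4) was at 17.79, 15.20, 15.58 and 17.58 CPM in HET libraries 1 to 4 and at 12.04, 15.24, 13.02 and 13.05 CPM in WT libraries 1 to 4. Apart from WT library 2, which lay just above the lowest HET library, every WT value was below every HET value. The log2 fold change was 0.30 ± 0.0780 (SE; edgeR adjusted p = 0.0566). Without WT library 2 it was 0.38 and passed (edgeR adjusted p = 0.0244), and it also passed with upper-quartile scaling (edgeR adjusted p = 0.0482) and in DESeq2 (adjusted p = 0.00976). It was smaller among the even-numbered libraries at 0.21 (edgeR adjusted p = 0.655), without WT libraries 1 and 3 at 0.22 (edgeR adjusted p = 0.411) and with the choroid plexus score described below at 0.17 (edgeR adjusted p = 0.864). Hist1h2be was at 3.36, 3.16, 3.01 and 3.17 CPM in HET and 2.75, 2.74, 2.64 and 2.70 CPM in WT libraries. Its groups did not overlap, with a log2 fold change of 0.22 ± 0.0936 (SE; edgeR adjusted p = 0.240). Exons of Hist1h2be and the H1 gene Hist1h1e overlap in the annotation, so reads there cannot be assigned with certainty. Hist1h2bb had the widest difference, 1.27 ± 0.502 (SE; edgeR adjusted p = 0.206), on 2 to 19 reads a library. Its level was 0.171 ± 0.0641 CPM in HET and 0.0747 ± 0.0558 CPM in WT (SD, n = 4 each), and the libraries overlapped. The difference was 0.21 among the odd-numbered and 2.63 among the even-numbered libraries, 2.33 without WT libraries 1 and 3 and 2.16 with the choroid plexus score.

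Hist3h2ba and Hist2h2be, the other well counted H2B genes, did not pass and had small differences. Hist3h2ba was at 9.87, 9.29, 9.82 and 10.9 CPM in HET and 9.12, 10.1, 10.8 and 8.99 CPM in WT libraries. The groups overlapped over nearly their whole range. The log2 fold change of 0.036 had an interval of 2 SE from -0.12 to 0.19 (edgeR adjusted p = 0.860). Its sign turned without HET library 4 and among the odd-numbered libraries. Hist2h2be had 6.71, 6.33, 7.88 and 6.17 CPM in HET and 6.14, 6.58, 6.92 and 6.51 CPM in WT libraries, and its interval ran from -0.12 to 0.23 (edgeR adjusted p = 0.811). HET library 3 was the highest of the 8, and without it, as among the even-numbered libraries, the sign turned.

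Of the H1 genes, which encode the linker histones that close the nucleosome, 2 of 6 were tested. Hist1h1c (ENSMUSG00000036181.1) was at 10.4, 10.5, 7.87 and 8.55 CPM in HET and 6.08, 7.74, 8.11 and 6.79 CPM in WT libraries. HET libraries 1, 2 and 4 lay above all WT libraries, and HET library 3 between WT libraries 2 and 3. The log2 fold change was 0.37 ± 0.114 (SE; edgeR adjusted p = 0.112), and DESeq2 called it (adjusted p = 0.0332). With the choroid plexus score it was 0.24 (edgeR adjusted p = 0.883). Hist1h1e, the H1.4 gene, was at 0.404 ± 0.0630 CPM in HET and 0.433 ± 0.146 CPM in WT (SD, n = 4 each; edgeR adjusted p = 0.857), and its sign turned without WT library 4. Hist1h1d, the H1.3 gene, missed the filter with 18, 19, 20 and 8 reads in HET and 6, 9, 3 and 3 reads in WT libraries; HET library 4 overlapped WT.

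Of 18 H2A genes 5 were tested, 4 with positive log2 fold changes, beside 47.9% of all tested genes. Hist3h2a (ENSMUSG00000078851.3) had the lowest p of the genes below WT, with 10.8, 10.3, 10.3 and 10.7 CPM in HET and 9.92, 10.9, 12.1 and 11.2 CPM in WT libraries. Its HET values all lay within the WT range, and the interval of its log2 fold change of -0.069 ran from -0.20 to 0.063 (2 SE; edgeR adjusted p = 0.648). With spike-in scaling the sign turned. An exon of Trim17 overlaps it on the same strand, and Trim17 itself had a log2 fold change of 0.023. Hist2h2aa1 was at 1.17, 0.915, 1.42 and 1.13 CPM in HET and 0.880, 0.910, 0.815 and 0.823 CPM in WT libraries. The groups stood apart, by a hair between HET library 2 and WT library 2, and the log2 fold change was 0.44 ± 0.175 (SE; edgeR adjusted p = 0.206). An exon of Gm20634 overlaps Hist2h2aa1 on the same strand, and Gm20634 itself had a log2 fold change of 0.076. Hist1h2ac, the partner of Hist1h2bc, had 0.680, 0.502, 0.675 and 0.765 CPM in HET and 0.400, 0.449, 0.401 and 0.534 CPM in WT libraries. WT library 4 lay above HET library 2, and the log2 fold change was 0.54 ± 0.216 (SE; edgeR adjusted p = 0.213). The row named Hist1h2al is annotated as a processed pseudogene, and 65.5% of its 50-base words stand in Gm20632, a transcript annotated antisense to Hist2h2aa2. It was at 1.63 ± 0.153 CPM in HET and 1.45 ± 0.250 CPM in WT (SD, n = 4 each; edgeR adjusted p = 0.675).

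Of the H3 genes 2 of 6 were tested, and of the H4 genes 5 of 12. Hist2h3c2 was at 1.85, 1.38, 1.36 and 0.999 CPM in HET and 0.826, 1.23, 1.05 and 1.19 CPM in WT libraries. HET library 1 was the highest and HET library 4 lay below 3 WT libraries, so the groups overlapped (log2 fold change 0.33 ± 0.199, SE; edgeR adjusted p = 0.428). Without HET library 1 it was 0.21, with the choroid plexus score 0.0038, among the odd-numbered libraries 0.74 and among the even-numbered ones -0.028. Hist2h3b, the other tested H3 gene, had 0.143 ± 0.0253 CPM in HET and 0.17 ± 0.0604 CPM in WT (SD, n = 4 each; edgeR adjusted p = 0.818), with a sign that turned among the even-numbered libraries. Hist1h3b was the next H3 gene by level, with 8 reads in HET and 6 reads in WT, and was not tested. Hist2h4 was at 3.09, 2.75, 2.92 and 2.90 CPM in HET and 2.68, 2.63, 2.63 and 2.20 CPM in WT libraries. Its groups did not overlap, with a log2 fold change of 0.20 ± 0.107 (SE; edgeR adjusted p = 0.364). Hist1h4i had 1.85, 1.88, 1.86 and 1.74 CPM in HET and 0.986, 1.79, 1.63 and 0.968 CPM in WT libraries. The HET libraries were close together, and WT libraries 1 and 4 stood well below the other two (log2 fold change 0.45 ± 0.194, SE; edgeR adjusted p = 0.260). Hist1h4h was at 0.418 ± 0.0411 CPM in HET and 0.329 ± 0.139 CPM in WT (SD, n = 4 each; edgeR adjusted p = 0.626). Its log2 fold change of 0.33 was 0.67 without WT library 2, 0.17 without WT library 3 and 0.026 with the choroid plexus score.

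**Figure D3:**
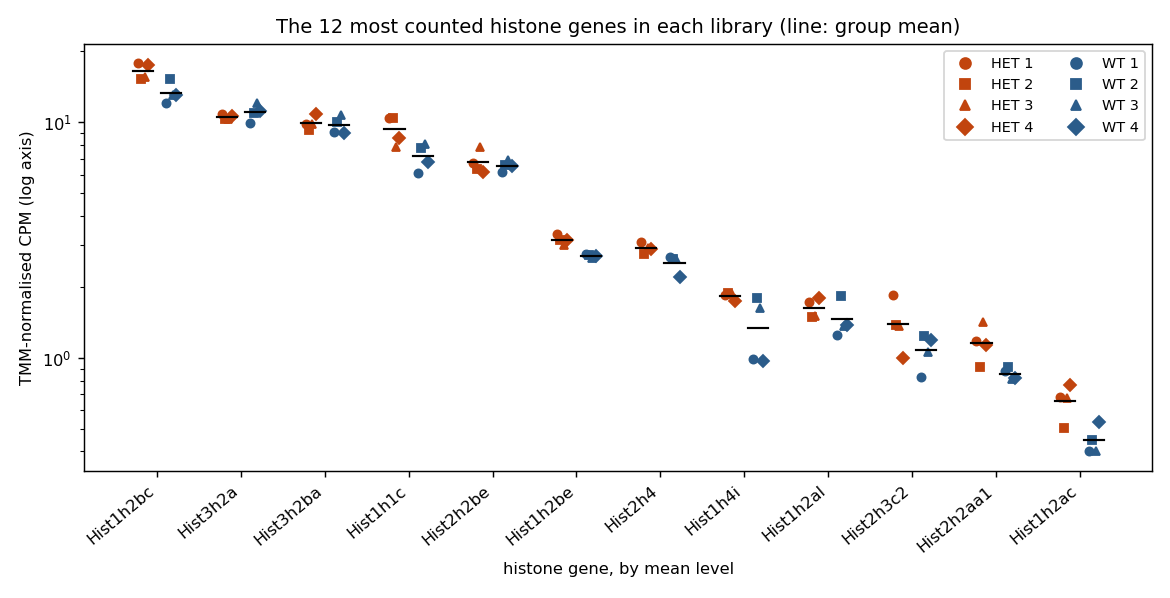
TMM-normalised CPM (vertical axis, log) of the 12 most counted histone genes in each HET library (left of each pair) and WT library (right), with the group mean as a line. Hist1h2be, Hist2h4 and Hist2h2aa1 show no overlap, and Hist3h2a, Hist3h2ba and Hist2h2be nearly full overlap.

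The arrays can be set side by side by summing the CPM of their genes in each library, which is a description with no test. The Hist1 genes summed to 38.9, 35.3, 33.3 and 36.6 CPM in HET and 25.4, 32.2, 28.9 and 27.4 CPM in WT libraries, a ratio of 1.26 with no overlap. Most of these sums came from Hist1h2bc and Hist1h1c. Hist1h2bc averaged 16.5 CPM in HET and 13.3 CPM in WT, and Hist1h1c 9.33 and 7.18 CPM. Hist2 genes came to 12.5 ± 1.16 CPM in HET and 11.3 ± 0.513 CPM in WT (SD, n = 4 each), and overlapped. Hist3 genes came to 20.6 ± 0.822 CPM in HET and 20.9 ± 1.67 CPM in WT (SD, n = 4 each), a ratio of 0.989. The 8 genes higher in HET at an unadjusted p under 0.05 were 7 of 12 tested Hist1, 1 of 6 Hist2 and 0 of 3 Hist3 genes. Of all tested genes 10.0% were higher at that p. The Hist1 array shares chromosome 13 with Nr2f1, and of the 603 tested genes of that chromosome 11.4% were higher in HET at an unadjusted p under 0.05. Whether the arrays differ from each other was not tested.

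The 28 genes with reads that the filter left out held 1 to 86 reads each over the 8 libraries, with a median of 13.5. Together they came to 1.26, 0.953, 1.04 and 1.07 CPM in HET and 0.413, 0.783, 0.577 and 0.501 CPM in WT libraries. Each HET sum lay above each WT sum, and the ratio of the means was 1.90, or 1.68 without WT libraries 1 and 3. Hist1h1d, the most counted of the 28, averaged 0.216 of 1.08 CPM in HET and 0.0637 of 0.568 CPM in WT. HET had more reads in 20 of the 28 genes, WT in 7, and 1 was even. No such share was taken over all genes below the filter. In the fit without a count filter 48.9% of all genes had positive log2 fold changes. Hist1h4j, an H4 gene, had 2, 10, 6 and 9 reads in HET and 0, 0, 1 and 1 reads in WT libraries. It was the one histone gene called when no count filter was applied (edgeR adjusted p = 0.0437), on 29 reads in all. Hist1h1b, the H1.5 gene, had 19 reads in HET, 11 of them in library 4, and 1 read in WT. With so few reads a gene, these values rest on sums.

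**Figure D4:**
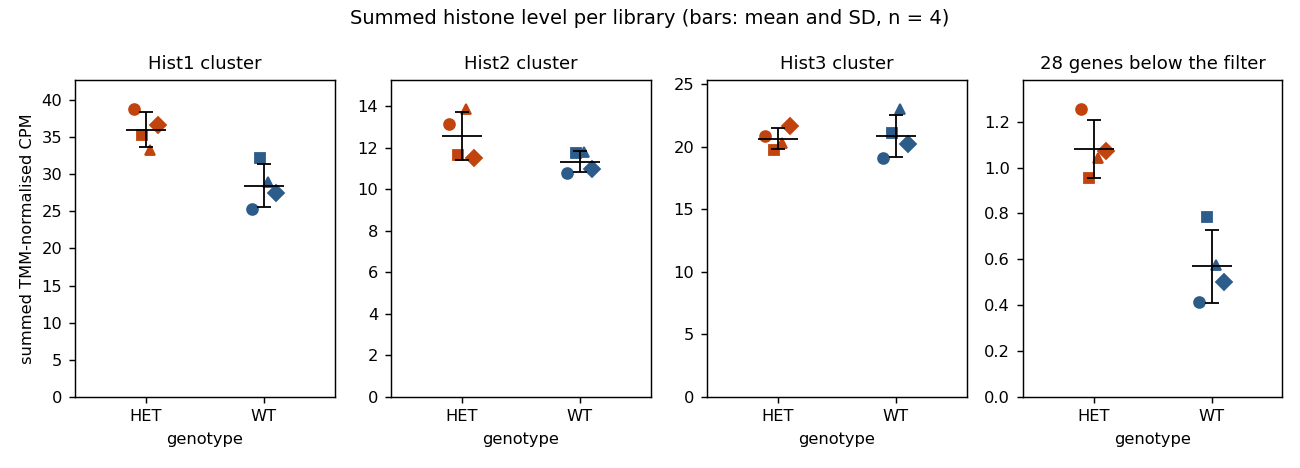
Summed CPM per library (vertical axes from 0, separate scales) of the Hist1, Hist2 and Hist3 genes and of the 28 genes below the count filter, HET left and WT right, with mean and SD of 4 libraries. HET and WT libraries are apart for Hist1 (ratio 1.26) and for the genes below the filter (ratio 1.90) and overlap for Hist2 and Hist3.

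Genes that work with the clustered histones were compared in the same fit. Of 10 tested replication-independent histone genes, which supply histones outside S phase, 0 passed and the median log2 fold change was 0.0094. Of these, 2 were higher in HET at an unadjusted edgeR p under 0.05. H3f3a, an H3.3 gene, was at 61.3 ± 1.46 CPM in HET and 56.8 ± 1.97 CPM in WT (SD, n = 4 each; edgeR adjusted p = 0.132), and H2afy, the macroH2A1 gene, at 75.1 ± 1.92 CPM in HET and 71.4 ± 0.695 CPM in WT (SD, n = 4 each; edgeR adjusted p = 0.259). The list of histone transcription, 3′ end processing and decay genes, Slbp, Npat and Lsm11 among them, had 0 of 27 past the test, 2 higher and 1 lower at an unadjusted p under 0.05, and a median of 0.00089. Its lowest p belonged to the poly(A) polymerase gene Tent4a (1.08-fold) and to Cdk2 (1.23-fold), the kinase that activates Npat. None of 17 histone chaperone genes passed, and 2 were lower at an unadjusted p under 0.05. Among them Atrx, which deposits H3.3 with Daxx, was at 0.922 of WT (edgeR adjusted p = 0.0993) and Nap1l2 at 0.870 (edgeR adjusted p = 0.205).

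Of 30 S phase and mitosis genes 1 passed, the cell cycle kinase gene Cdk1, at 0.813 ± 0.0613 CPM in HET and 0.248 ± 0.0888 CPM in WT (SD, n = 4 each; edgeR adjusted p = 0.00602). At an unadjusted edgeR p under 0.05, 7 of the 30 were higher and 0 lower, and the list's median was 0.14. The list chosen as RNAs without a canonical poly(A) tail had 0 of 6 past the test and 1 higher at an unadjusted p under 0.05. Its median was -0.049. In that list Neat1 stood at 1.35-fold and Malat1 at 1.06-fold, edgeR adjusted p = 0.180 and 0.334. Counts by gene do not tell forms with and without a tail apart. Among neuroblast and progenitor markers 3 of 8 rose: Eomes, of intermediate progenitors, 5.16-fold, Igfbpl1 2.20-fold and Calb2 1.41-fold. At an unadjusted edgeR p under 0.05, 1 of the 8 was lower, and the list's median log2 fold change was 0.084. No oligodendrocyte precursor, microglial, endothelial or blood marker passed, of 6, 7, 7 and 6 tested, where 0, 0, 1 and 0 were higher and 1, 1, 1 and 0 lower at an unadjusted edgeR p under 0.05.

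Other features of the libraries moved with genotype, and their part in the histone values was not tested. Markers of the choroid plexus had 13 of 14 and ependymal markers 7 of 7 higher in HET at an unadjusted edgeR p under 0.05, of which 0 and 5 passed. The ependymal markers summed to 33.8 to 50.2 CPM in HET and 12.7 to 23.2 CPM in WT libraries. The 6 blood markers had a median log2 fold change of 0.62, none past the test, and summed to 328, 182, 228 and 101 CPM in HET and 161, 148, 121 and 102 CPM in WT libraries, which overlapped. With a choroid plexus score added to the fit, 16 of 21 histone genes were positive, beside 50.5% of all genes, and the median was 0.22. In that fit 1 of 21 was higher at an unadjusted p under 0.05, beside 3.51% of all genes, and 1 gene of the whole table passed the adjusted threshold. The marker sums do not overlap between the genotypes, so choroid plexus content and genotype cannot be told apart. Without WT libraries 1 and 3, the ones lowest in the choroid plexus list, 17 were positive, beside 48.7% of all genes, and 3 were higher at an unadjusted p under 0.05, beside 6.47% of all genes. Within the odd-numbered libraries 18 of 21 were positive, beside 51.2% of all genes, with a median of 0.29. At an unadjusted p under 0.05, 4 were higher there, beside 9.94% of all genes. Within the even-numbered ones 15 of 21 were positive, beside 48.4% of all genes, with a median of 0.084. There 2 were higher at an unadjusted p under 0.05, beside 5.74% of all genes. With spike-in scaling 19 of 21 were positive, beside 80.2% of all genes. In that fit 0 were higher at an unadjusted p under 0.05, beside 3.44% of all genes. Leaving out 1 library at a time left 16 to 19 of 21 positive, beside 46.5% to 50.9% of all genes. Higher at an unadjusted p under 0.05 were 3 to 7 of 21, beside 8.64% to 10.9% of all genes. With all libraries 8 were, beside 10.0%. The lowest count, 3, came without WT library 4, beside 10.9% of all genes. The count was 4 without WT library 1 or HET library 3 or 4 and 5 without WT library 3 or HET library 2.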

How the data were processed

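Hippocampal RNA of 8 mice was measured, and the deposited file holds raw counts, as whole reads for each Ensembl gene, beside 92 spike-in rows. Builds NCBIM37 and mm9 and the tools STAR 2.4.2a, HTSeq, FastQC and DESeq2 are named per the submitters' processing notes. The sources used here do not give the settings, the annotation or the treatment of reads that map to several places. Because strand is not stated to be used, overlapping and antisense genes can share reads. Libraries held 58717305 to 90043971 gene counts.

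Library sizes and tests left out the spike-ins. Symbols, exon lengths, transcripts and overlaps came from GENCODE M21 (GRCm38, another build than the counts), with symbols for 32620 genes; promoters came from RefSeq on GRCm38.p6, matched by gene ID or symbol. Counts were filtered with filterByExpr (minimum count 10, total 15), scaled by TMM and tested for genotype over all 17913 genes in edgeR 4.0.16 (R 4.3.3) by its quasi-likelihood F test. Tests were two-sided, p-values were adjusted by Benjamini-Hochberg, and the threshold was 0.05. An SE is the size of the log2 fold change over the square root of F. The fit was tested on simulated data. There it recovered 61% of changes of log2 0.6 and 76% of changes of log2 1, and 7.43% of its calls were false. Smaller changes were not simulated.

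The members, the 13 other lists and the tests were chosen with earlier results of these data known. Named are the 3 most counted genes of each histone type, genes that passed, the 5 of lowest p in each direction (only 3 had values below WT), and the testis forms Hist1h1t, Hist1h2ba and Hist1h2aa. From each other list come up to 4 genes that passed, or else the 2 of lowest p. Other histone genes in the text were chosen after their values were seen. Same-numbered libraries were not paired by the labels. Alternatives were DESeq2 1.42.0 (size factors and Wald test), upper-quartile and spike-in scaling, limma-voom (limma 3.58.1), other filters, each library left out, the replicate block, odd or even library number as a covariate and each alone (earlier results tie it to the spike-in mix, which the labels do not give per library), and histone types summed. WT libraries 1 and 3 left out together and the choroid plexus score (the mean log2 CPM of the list, centred) were added after the data were seen.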

Additional observations from a re-analysis of the deposited data

Results flagged for a closer look

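Hist2h4 in WT had 1 library far from the others. WT library 4 was at 2.20 CPM and the other WT libraries at 2.68, 2.63 and 2.63 CPM, and the gap took up 0.890 of the WT range, above Dixon's critical value for 4 samples. The HET libraries lay between 2.75 and 3.09 CPM. Chance alone marks about 1 in 20 groups in this way, and 42 groups were looked at.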

How the results depend on the processing

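No histone gene was called lower in HET under any of the alternatives run. The number called higher was 0 with all libraries and stayed 0 under all alternatives but 4: it was 1 with upper-quartile scaling (Hist1h2bc), 1 without the low-count filter (Hist1h4j) and 2 with the DESeq2 Wald test (Hist1h2bc and Hist1h1c), and it ran from 0 to 1 over the libraries left out, the 1 being Hist1h2bc without WT library 2. The cause was not tested. Nr2f1 lost its call with spike-in scaling, where its log2 fold change was -0.64. It kept the call under the other alternatives.

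Some genes with small differences changed sign. Hist1h1e was at 0.19 among odd-numbered libraries and ran from -0.35 to 0.036 over the libraries left out. Hist2h2be was at -0.066 among even-numbered libraries and ran from -0.034 to 0.097 over the libraries left out. Hist2h3b was at 0.064 among even-numbered libraries, at 0.25 without WT libraries 1 and 3 and at 0.49 with the choroid plexus score. With that score Hist1h2al was at -0.049. Hist2h3c2 was at -0.028 among even-numbered libraries and Hist3h2a at 0.025 with spike-in scaling. Hist3h2ba was at -0.0060 among odd-numbered libraries and ran from -0.013 to 0.084 over the libraries left out. The summed level of all members had a ratio of HET over WT of 1.14, of 1.16 with raw CPM, of 1.11 without Hist1h2bc, and of 1.11 to 1.17 over the libraries left out. With each histone type summed into 1 feature, log2 fold changes ran from 0.022 (H2A) to 0.37 (H1). Other log2 fold changes moved by over 1.5 times without a change of sign: with the choroid plexus score Hist1h2ac was at 0.33, Hist2h4 at 0.33 and Hist3h2a at -0.14, among even-numbered libraries Hist2h2aa1 was at 0.24 and Hist1h4h at 0.030, and without WT library 2 Hist1h2al was at 0.28. Protein identity between the genes was not run.

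With the replicate block 17 of 21 histone genes were positive, beside 47.6% of all genes, 5 were higher at an unadjusted p under 0.05, beside 9.30% of all genes, and 0 passed, and Hist1h2bc had a log2 fold change of 0.31 (edgeR adjusted p = 0.140). Same-numbered libraries did not deviate together, with correlations of -0.093 to 0.027, and the labels state no pairing. Depth limits the 28 genes below the filter, at a median of 13.5 reads over 8 libraries.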
